A study of Homo sapiens with 12 samples.

Results

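The genes described here encode histone lysine methyltransferases and demethylases that were measured in HK2 cells, an immortalised line of human proximal tubular epithelial cells. They were taken by symbol from the genes listed in every library: names beginning with KDM, KMT, SETD, SMYD or NSD and a digit, and JMJD1C, JMJD6, EHMT1, EHMT2, SUV39H1, SUV39H2, DOT1L, ASH1L, PHF8, WHSC1 and WHSC1L1 (the last pair listed under NSD2 and NSD3). The rule gave 58 of the 58278 listed genes, after 3 pseudogene names ending in P and a digit were left out. It holds 31 methyltransferase genes, 23 demethylase genes and 4 non-coding RNAs named after them. These classes also count members described below by another activity. They are KDM8 and JMJD6 (hydroxylases) among the demethylase genes, and KMT2E (a reader) and SETD3 (a histidine methyltransferase) among the methyltransferase genes. Measured genes with other names, such as EZH1, EZH2, SETDB1, SETDB2 and PHF2, fall outside the rule and are not in its counts. Of the 58, 53 passed the filter on low counts and 45 had at least 10 CPM (counts relative to library size, scaled with TMM factors) on average over the libraries.

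Lysine residues of the histone tails carry methyl groups that are placed by enzymes with a SET domain or, for H3K79, by DOT1L, which take the methyl group from S-adenosylmethionine. They are removed by the flavin-dependent amine oxidases KDM1A and KDM1B or by JmjC-domain dioxygenases that use 2-oxoglutarate and iron. Methylation of H3K4, H3K36 and H3K79 is known from transcribed genes, and methylation of H3K9, H3K27 and H4K20 from repressed chromatin, and several of the enzymes also act on other proteins.

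RNA was sequenced from 12 libraries, 2 biological replicates in each of 6 groups. Ctrl cells were untreated, and TN cells received TNF-α at 5 ng/mL for 3 h. PRTN and BUTN cells received propionate at 15 mM or butyrate at 3 mM for 24 h before the same TNF-α, and TNPR and TNBU cells received these short-chain fatty acids (SCFAs) for 24 h after it. All libraries come from this single cell line, no library analysed here had an SCFA without TNF-α or TNF-α followed by 24 h without an SCFA, so in TNPR and TNBU the SCFA and the time since TNF-α cannot be told apart. The doses of propionate and butyrate also differ, so the compound and its dose cannot be told apart. The general treatment text of the labels names thapsigargin and JQ1, whereas each library's own label and the methods of the study name TNF-α and the SCFAs, which are used here.

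The estimated counts summed to between 27269986 and 33851130 per library, and 3 counts corresponded to 0.0867 to 0.112 CPM. Members of the rule held 0.307% to 0.399% of the counts of a library. The epithelial keratins KRT8 and KRT18 and the renal tubular genes PAX8 and GGT1 were expressed in all libraries, as was VIM, a mesenchymal marker, at 1278 to 1967 CPM. Of 8 markers of the differentiated proximal tubule 5 were under 1 CPM in every library without an SCFA, and SLC22A6 was at 0 throughout. The list of 10 epithelial and tubular markers, in which VIM is counted, summed to 3593 to 3725 CPM in the libraries without an SCFA and to 3382 to 4661 CPM in those with one. The 8 differentiated tubule markers summed to 184 to 228 CPM and 73.9 to 95.5 CPM. GGT1 made up most of this sum, with a mean of 194 CPM in TN and 63.9 to 72.4 CPM in the SCFA groups. AQP1 (0.439 CPM in TN, 6.31 to 14.8 CPM in the SCFA groups) and CUBN (1.28 and 2.63 to 3.46 CPM) went the other way. ANPEP and LRP2 were also higher with an SCFA, SLC5A2 went both ways, and SLC34A1 stayed under 1 CPM. Markers of other cells (PTPRC, CD14, PECAM1 and CDH5) summed to 0.782 to 1.18 CPM without an SCFA and 4.21 to 6.01 CPM with one, and PTPRC, the marker of leukocytes, was at or under 0.152 CPM throughout. The part of these marker shifts in the results below was not tested.

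After TNF-α alone no gene of the histone methylation enzymes passed the test. In TN vs Ctrl none of the 53 members tested was called higher or lower when both a fold beyond 1.5 and an adjusted p below 0.05 were asked for (limma-voom), against 0.764% of all 24342 genes tested called higher and 0.534% called lower. At an unadjusted p under 0.05 there were 5 members, and the quasi-likelihood test of edgeR and DESeq2 also called 0. The median log2 fold change of the members was -0.01, with a range from -0.51 to 0.32. The lowest value belonged to KMT5C, which places the higher methylation states of H4K20: it stood at 23.3 and 22.2 CPM in Ctrl and at 14.4 and 17.6 CPM in TN, without overlap, and its log2 fold change of -0.51 ± 0.10 (SE) had an adjusted p of 0.0177 but a fold of only 1.43. Without TN replicate 2 its log2 fold change was -0.65 and it passed both thresholds. KDM6B, the H3K27 demethylase known to be induced by inflammatory stimuli in macrophages, had a log2 fold change of 0.01 ± 0.12 after TNF-α.

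With either SCFA, far more of these genes stood lower than higher. Against TN, propionate given first was followed by 6 members that rose and 18 that fell (PRTN), butyrate given first by 4 and 18 (BUTN), propionate given later by 8 and 20 (TNPR) and butyrate given later by 9 and 20 (TNBU). The 9 in TNBU include SMYD1, which had 0 counts in every library without an SCFA. Among all genes tested the share called higher was 23.9%, 23.1%, 24.9% and 25%, and the share called lower was 16.7%, 14.8%, 16.9% and 16.5%, in the same order. Because the members are expressed at higher levels than most genes, the 10194 genes of at least 10 CPM are a closer background: there 18%, 15.3%, 18.1% and 16.9% were called higher and 23.2%, 21%, 24.8% and 24.7% lower. The members' own shares were 11.3%, 7.55%, 15.1% and 17.0% higher and 33.96%, 33.96%, 37.7% and 37.7% lower. Unlike that background, these shares and the class shares below cover tested members of any level. Of the 53 tested, 45 had at least 10 CPM. Their median log2 fold change was -0.29, -0.33, -0.31 and -0.30, where the median of all genes tested was 0.09, 0.08, 0.12 and 0.09 and that of the genes of at least 10 CPM was -0.11, -0.13, -0.12 and -0.14. The sign of the median of all genes depended on the filter. With every gene of at least 1 count in 1 library kept, it was -0.10, -0.11, -0.06 and -0.10. The median of the members was then -0.31, -0.33, -0.30 and -0.32. These are relative levels in bulk RNA, in which fewer cells of a kind and less RNA per cell cannot be told apart, and the 4 comparisons share the TN libraries. Scaling by library size alone moved the median of all genes by 0.155 to 0.196 on the log2 scale, and the members called were then 10 higher and 15 lower, 10 and 14, 10 and 17, and 10 and 16. KDM4B, KDM4C, KMT5C and SETD3 were then called higher in all 4 groups, and ASH1L, KDM8, SETD1A and SETD1B were no longer called lower in all 4. EHMT1, SUV39H2 and KDM6A then lost their calls.

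**Figure D1:**
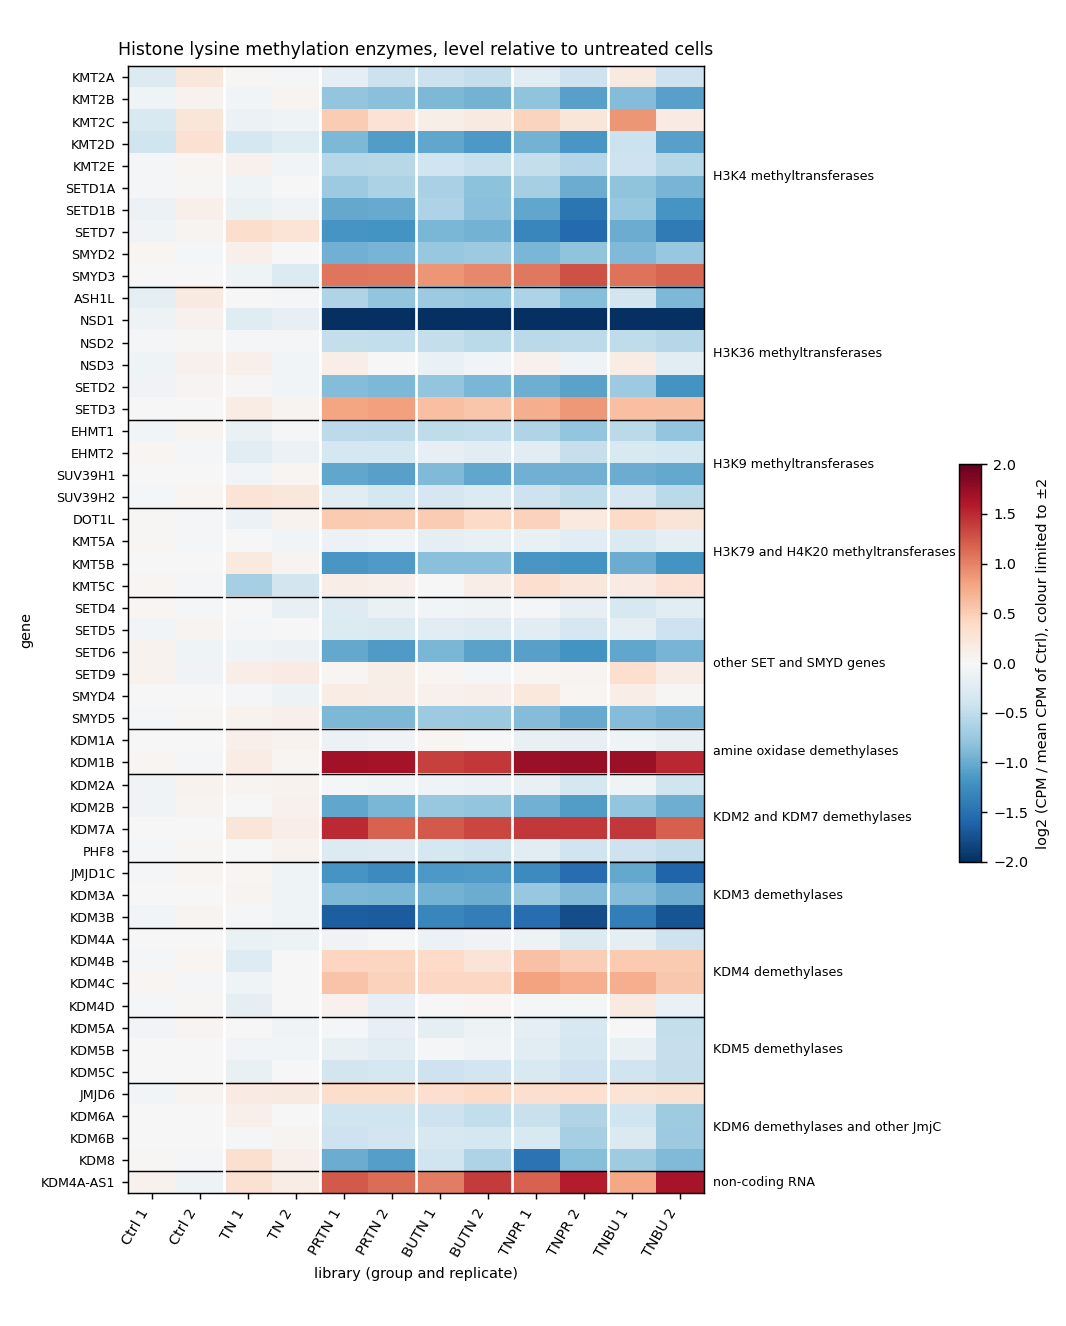
Level of the 51 tested members with at least 1 CPM (rows, grouped by enzyme class) in each of the 12 libraries (columns), as log2 of CPM over the mean of the Ctrl libraries, with the colour limited to ±2. The 4 columns without an SCFA are pale in most rows, whereas NSD1 is dark blue and KDM1B, SMYD3, KDM7A and KDM4A-AS1 are red in all 8 SCFA columns.

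The members called higher in all 4 SCFA groups were 4 in number: KDM1B, KDM7A, SMYD3 and the antisense RNA KDM4A-AS1. Called lower in all 4 were 17: ASH1L, KMT2B, KMT5B, NSD1, SETD1A, SETD1B, SETD2, SETD6, SETD7, SMYD2, SMYD5 and SUV39H1 among the methyltransferase genes, and JMJD1C, KDM2B, KDM3A, KDM3B and KDM8 among the demethylase genes. Over all genes tested, 18.4% were called higher and 11.9% lower in all 4 groups, and over the genes of at least 10 CPM 13.5% and 18.7%. No call was made in any of the 4 comparisons for 22 members, DOT1L, EHMT2, JMJD6, KDM1A, KDM2A, KDM4A, KDM4D, KDM5A, KDM5B, KDM5C, KDM6B, KMT2A, KMT2E, KMT2E-AS1, KMT5A, NSD2, NSD3, PHF8, SETD4, SETD5, SETD9 and SMYD4. All 8 SCFA libraries lay below all 4 libraries without an SCFA in 28 of the 53 members and above them in 11. Over all genes tested the shares were 23.4% below and 27.6% above. This background was not limited by level, and the separation was not counted over the genes of at least 10 CPM. The 11 include SMYD1, which had 0 counts without an SCFA. It passed the filter only through its SCFA libraries, so its separation says nothing beyond the filter. No member was called in opposite directions in different SCFA groups.

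**Figure D2:**
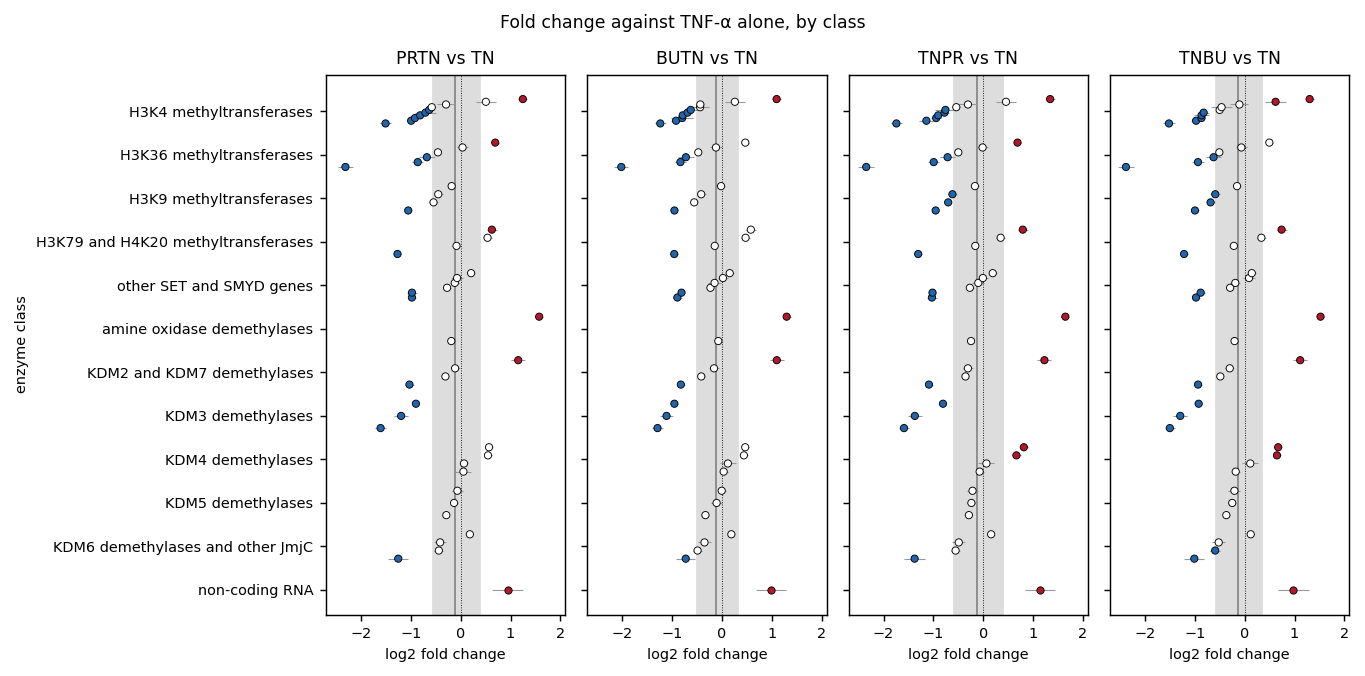
Log2 fold change (horizontal axis) of each tested member with at least 1 CPM against TN, by enzyme class (vertical axis), with bars of 1 SE; red points were called higher, blue points lower and open points were not called. The grey band and line give the middle 50% and the median of the 10194 genes of at least 10 CPM, and the 3 KDM3 demethylases lie left of the band in all 4 panels.

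Promoter windows of some of the members that moved far, and of KDM1A, which did not pass the test, are shown to set their sequence beside their response. Each window holds 300 bases, the last 50 of them after the start of a RefSeq gene on GRCh38.p14, written 5′ to 3′ on the strand of the gene. Capitals mark the GC box GGGCGG and the CCAAT box on either strand. The windows are chr5:177131548-177131847 (plus strand) for NSD1, chr5:138352435-138352734 (plus) for KDM3B, chr6:18155172-18155471 (plus) for KDM1B, chr1:246507230-246507529 (minus) for SMYD3 and chr1:23019218-23019517 (plus) for KDM1A.
NSD1: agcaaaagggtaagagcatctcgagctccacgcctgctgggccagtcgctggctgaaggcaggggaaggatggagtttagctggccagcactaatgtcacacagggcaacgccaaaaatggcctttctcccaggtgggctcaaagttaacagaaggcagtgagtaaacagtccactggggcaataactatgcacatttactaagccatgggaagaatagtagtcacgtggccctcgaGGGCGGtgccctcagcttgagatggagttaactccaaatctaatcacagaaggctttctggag
KDM3B: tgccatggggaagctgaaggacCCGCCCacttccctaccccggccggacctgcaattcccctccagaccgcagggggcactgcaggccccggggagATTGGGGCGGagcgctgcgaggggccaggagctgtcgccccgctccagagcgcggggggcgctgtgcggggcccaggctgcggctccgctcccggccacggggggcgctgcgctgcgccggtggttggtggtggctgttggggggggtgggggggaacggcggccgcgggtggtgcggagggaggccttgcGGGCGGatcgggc
KDM1B: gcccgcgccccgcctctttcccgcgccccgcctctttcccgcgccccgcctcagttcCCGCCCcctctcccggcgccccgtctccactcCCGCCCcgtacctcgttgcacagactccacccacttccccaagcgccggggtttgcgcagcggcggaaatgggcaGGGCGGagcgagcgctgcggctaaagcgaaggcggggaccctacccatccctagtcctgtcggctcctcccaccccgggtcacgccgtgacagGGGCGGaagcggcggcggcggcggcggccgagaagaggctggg
SMYD3: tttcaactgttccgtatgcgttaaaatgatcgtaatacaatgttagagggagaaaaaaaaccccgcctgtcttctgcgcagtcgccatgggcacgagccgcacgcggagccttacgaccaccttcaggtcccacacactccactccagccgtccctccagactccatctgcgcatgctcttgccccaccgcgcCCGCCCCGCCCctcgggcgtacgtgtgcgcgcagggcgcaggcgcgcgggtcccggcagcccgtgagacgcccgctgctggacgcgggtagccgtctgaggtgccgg
KDM1A: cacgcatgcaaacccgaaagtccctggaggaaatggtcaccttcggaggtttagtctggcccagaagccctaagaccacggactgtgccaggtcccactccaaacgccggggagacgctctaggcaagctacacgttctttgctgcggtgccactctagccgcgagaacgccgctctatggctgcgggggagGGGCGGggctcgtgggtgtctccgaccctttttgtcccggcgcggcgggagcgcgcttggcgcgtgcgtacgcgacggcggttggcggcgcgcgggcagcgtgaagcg
The NSD1 window held 7 CpG dinucleotides and 1 GC box, the KDM3B window 30 and 3, the KDM1B window 39 and 4, the SMYD3 window 34 and 2, and the KDM1A window 36 and 1. SETD7 and KDM7A also moved in all 4 groups, and their windows are not printed. The SETD7 window held 22 CpG and 0 GC boxes, and the KDM7A window 56 and 1. In KDM3B a CCAAT box on the other strand overlaps a GC box by a shared G, and in SMYD3 the pair of GC boxes shares a C. Over 49 coding members with a window, 73.5% held a GC box and the median number of CpG was 29, against 44.6% and 14 over 27305 RefSeq promoters of the same length. That background was not limited to coding or expressed genes, so the sets are unlike and the difference cannot be read as particular to these enzymes. The GC box was present in 12 of the 16 windows of members called lower in all 4 groups and in 14 of the 18 of coding members called in none. CCAAT was found in 5 and 6 of these windows, in 30.6% of all members' windows and in 35.7% of all promoters. TATAAA, also read on both strands, stood in 2.04% of the members' windows and in 12% of all. A match describes the letters of the window only.

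Among the H3K4 methyltransferase genes, 11 in all, 6 fell and 1 rose in PRTN, BUTN and TNPR alike, and in TNBU 5 fell and 3 rose. Those 3 include SMYD1, which had 0 counts in every library without an SCFA. The class median was a log2 fold change of -0.63, -0.63, -0.76 and -0.50. SETD7 (ENSG00000145391.13, chromosome 4, 139495941 to 139606699 on GRCh38), a monomethyltransferase that also modifies non-histone proteins, fell the furthest. It was measured at 73.04 and 79.7 CPM in Ctrl, 97.5 and 92.4 in TN, then 33.6 and 33.2 with PRTN, 40.7 and 39.8 with BUTN, 30.9 and 25.9 with TNPR, and 38.4 and 28.6 with TNBU. All 8 SCFA libraries lay under all 4 others, and both TN libraries were above both Ctrl libraries. Its log2 fold changes against TN were -1.51 ± 0.11, -1.24 ± 0.11, -1.74 ± 0.11 and -1.52 ± 0.11 in PRTN, BUTN, TNPR and TNBU, which is 2.36 to 3.35-fold lower (adjusted p 6.89e-08 to 1.15e-06).

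SMYD2 and SMYD3, SET and MYND domain enzymes that methylate histones and signalling proteins, went opposite ways. SMYD2 stood at 78.3 and 74.8 CPM in Ctrl, 82.1 and 76.5 in TN, then 39.3 and 40.3 with PRTN, 45.3 and 46.5 with BUTN, 40.8 and 43.9 with TNPR, and 41.5 and 45.4 with TNBU. SMYD3 (ENSG00000185420.18, chromosome 1, 245749342 to 246507312) stood at 22.3 and 22.2 CPM in Ctrl, 20.9 and 18.4 in TN, then 46.8 and 46.3 with PRTN, 40.8 and 43.03 with BUTN, 46.2 and 53.4 with TNPR, and 46.98 and 49.8 with TNBU. In neither gene did the SCFA libraries overlap with the others. The log2 fold changes of SMYD2 were -0.99 ± 0.07, -0.79 ± 0.07, -0.90 ± 0.07 and -0.87 ± 0.07 (adjusted p 1.36e-07 to 1.09e-06) and those of SMYD3 were 1.25 ± 0.09, 1.10 ± 0.09, 1.34 ± 0.09 and 1.30 ± 0.09, a rise of 2.14 to 2.53-fold (adjusted p 9.65e-08 to 7.54e-07).

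Of the MLL and SET1 enzymes, which act in COMPASS-type complexes, the enzymes of H3K4 trimethylation at promoters SETD1A (-0.63, -0.69, -0.78 and -0.82) and SETD1B (-0.92, -0.63, -1.14 and -0.86) fell in all 4 groups, as did KMT2B (-0.81, -0.92, -0.95 and -0.97). Without PRTN replicate 1 the call for SETD1A in PRTN was lost at a log2 fold change of -0.58, and without BUTN replicate 2 that for SETD1B in BUTN at -0.51. KMT2A, the founding MLL gene, was measured at 165 and 235 CPM in Ctrl, 203 and 194 in TN, then 177 and 148 with PRTN, 149 and 144 with BUTN, 171 and 150.1 with TNPR, and 228 and 149.9 with TNBU. Its replicates were wide apart in Ctrl and TNBU, the SCFA libraries overlapped with the others, and the log2 fold changes of -0.29 ± 0.18, -0.44 ± 0.18, -0.31 ± 0.18 and -0.11 ± 0.18 did not pass the test (adjusted p 0.0581 to 0.648).

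KMT2D and KMT2C are the monomethyltransferases of enhancers. KMT2D was measured at 93.5 and 153 CPM in Ctrl, 96.9 and 104 in TN, then 66.2 and 57.00 with PRTN, 60.2 and 55.4 with BUTN, 63.8 and 54.9 with TNPR, and 91.5 and 58.1 with TNBU. It fell in PRTN, BUTN and TNPR (log2 -0.71, -0.80, -0.76 and -0.46 in the 4 groups) but not past the test in TNBU, where the replicates stood at 91.5 and 58.1 CPM. KMT2D was called lower in TNBU as well once TNBU replicate 1 was left out (log2 fold change -0.83), and its other calls were lost without TN replicate 2 in PRTN and TNPR (adjusted p 0.0720 and 0.0538), without PRTN replicate 2 (adjusted p 0.0886), without BUTN replicate 2 (adjusted p 0.0517) or without TNPR replicate 2 (adjusted p 0.0683).

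KMT2C was measured at 40.9 and 59.8 CPM in Ctrl, 46.4 and 47.2 in TN, then 71.5 and 61.6 with PRTN, 54.8 and 57.1 with BUTN, 68.5 and 59.9 with TNPR, and 92.5 and 56.1 with TNBU. It was called higher in TNBU, at a log2 fold change of 0.62 ± 0.21 (adjusted p 0.0208), and its values in PRTN, BUTN and TNPR were 0.51, 0.26 and 0.45. Without TNBU replicate 1, the highest library, the value was 0.23 (adjusted p 0.292), and the call was also lost without either TN replicate (adjusted p 0.0945 and 0.0880). KMT2E, a SET-domain reader of H3K4 trimethylation, was at 138 to 152 CPM without an SCFA and 95.7 to 109 CPM with one, without overlap, and its log2 fold changes of -0.58 to -0.43 stayed just within 1.5-fold. It was called lower in PRTN without TN replicate 2 (-0.67), PRTN replicate 2 (-0.59), BUTN replicate 1, TNPR replicate 1 or TNBU replicate 1 (-0.61 in each), in TNPR without TN replicate 2 or TNPR replicate 1 (-0.64 in each) or TNBU replicate 1 (-0.59), and in TNBU without TNBU replicate 1 (-0.62). SMYD1, the SMYD gene of heart and skeletal muscle, had 0 counts in all 4 libraries without an SCFA and 1 to 5 counts in each SCFA library. That is at or near the limit of 3 counts per library, and no fold is given, although limma-voom called it higher in TNBU, a call lost without either TN replicate or TNBU replicate 1 (adjusted p 0.0665, 0.0764 and 0.0579) and with DESeq2 (adjusted p 0.131). It was called in BUTN without BUTN replicate 1, TNPR replicate 1 or TNPR replicate 2 (adjusted p 0.0149, 0.0449 and 0.0496) and in TNPR without TNPR replicate 1 (adjusted p 0.0197), among other settings.

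The H3K36 methyltransferase genes held the strongest decrease among the members, and 3 of the 6 fell in each SCFA group. NSD1 (ENSG00000165671.19, chromosome 5, 177131830 to 177300213), which places H3K36 dimethylation over broad regions, was measured at 18.8 and 21.4 CPM in Ctrl, 17.02 and 18.02 in TN, then 3.79 and 3.25 with PRTN, 4.29 and 4.33 with BUTN, 3.35 and 3.52 with TNPR, and 4.06 and 2.79 with TNBU. The highest SCFA library, at 4.33 CPM, was far below the lowest of the others, a TN library. The log2 fold changes of -2.31 ± 0.15, -2.02 ± 0.14, -2.35 ± 0.15 and -2.38 ± 0.16 correspond to levels lower by a factor of 4.05 to 5.21 (adjusted p 7.22e-08 to 1.8e-07), and between 1.82% and 2.48% of all genes tested had a fold change as low or lower. Its relative NSD2, with the same dimethylation product, went from 301 to 317 CPM without an SCFA to 209 to 225 CPM with one, without overlap, but its log2 fold changes of -0.51 to -0.46 did not reach 1.5-fold. NSD3 stood at 95.7 to 109 CPM and 86.4 to 113 CPM, with overlap.

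SETD2, the enzyme of H3K36 trimethylation that travels with elongating RNA polymerase, was measured at 85.3 and 93.00 CPM in Ctrl, 90.1 and 85.5 in TN, then 49.01 and 47.7 with PRTN, 51.4 and 47.2 with BUTN, 45.5 and 42.6 with TNPR, and 54.1 and 39.1 with TNBU. The SCFA libraries did not overlap with the others. The log2 fold changes were -0.86 ± 0.11, -0.83 ± 0.11, -0.995 ± 0.11 and -0.94 ± 0.12 (adjusted p 9.14e-06 to 4.51e-05). ASH1L also fell (-0.68, -0.72, -0.72 and -0.62), with its call lost without PRTN replicate 2 in PRTN (log2 fold change -0.58) and, in TNBU, without TNBU replicate 2 (-0.35) and with DESeq2 (-0.58). SETD3, listed with this class but known as the histidine methyltransferase of actin, was at 47.6 to 53.2 CPM without an SCFA and at 70.1 to 87.4 CPM with one. It rose in PRTN and TNPR (log2 0.69 in each) and stood at 0.47 and 0.49, under the fold threshold, in BUTN and TNBU.

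**Figure D3:**
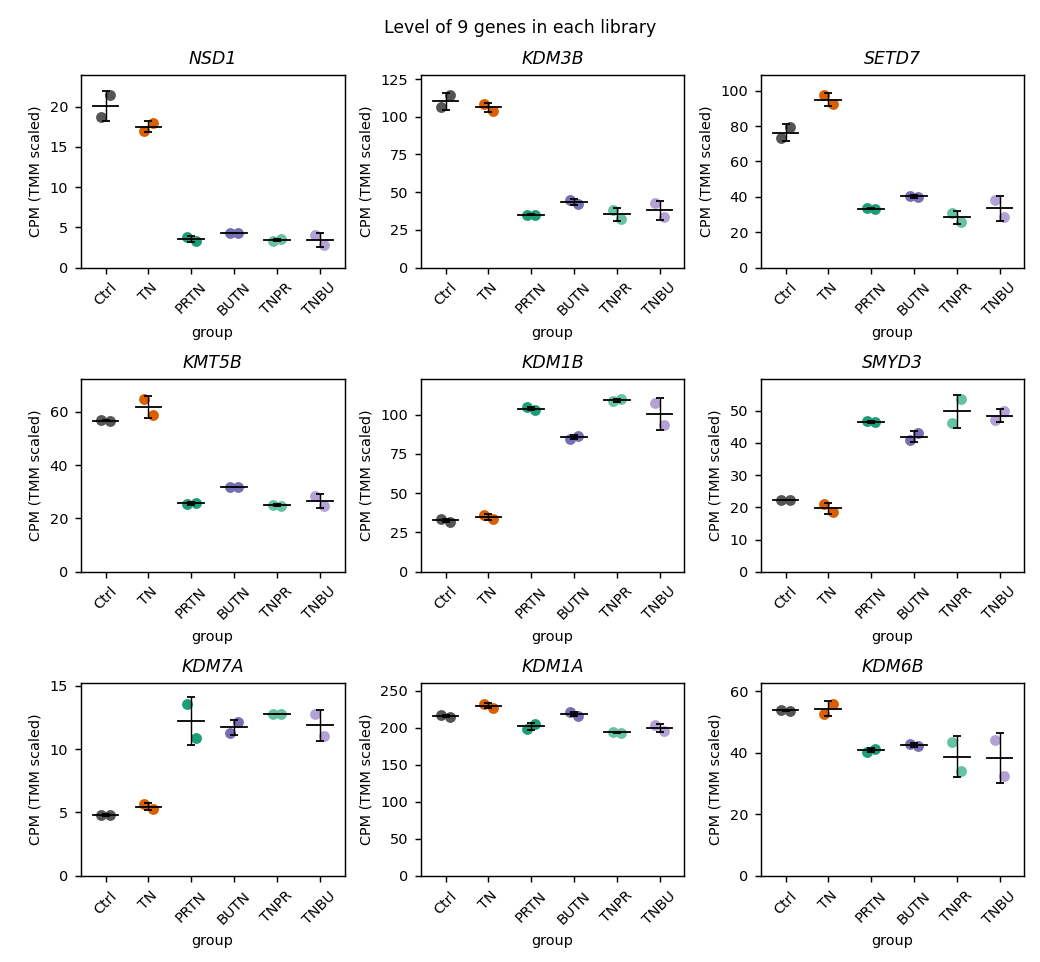
Level in CPM (vertical axis from 0) of 9 members in each library by group, with points for the 2 replicates, a line at their mean and bars of 1 SD. NSD1, KDM3B, SETD7 and KMT5B are lower and KDM1B, SMYD3 and KDM7A higher in every SCFA library than in any Ctrl or TN library, whereas KDM1A and KDM6B stay within 1.5-fold of TN in their group means.

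Of the 4 H3K9 methyltransferase genes of the rule, SUV39H1, an enzyme of H3K9 trimethylation in constitutive heterochromatin, fell in every SCFA group. It was measured at 35.02 and 35.1 CPM in Ctrl, 33.96 and 35.99 in TN, then 17.1 and 16.6 with PRTN, 19.1 and 17.1 with BUTN, 17.9 and 18.1 with TNPR, and 17.7 and 17.3 with TNBU. The 8 SCFA values spanned 16.6 to 19.1 CPM and the others 33.96 to 35.99 CPM. Its log2 fold changes were -1.05 ± 0.08, -0.95 ± 0.08, -0.96 ± 0.08 and -0.996 ± 0.08 (adjusted p 1.63e-07 to 4.24e-07), a fold of 1.94 to 2.07. The paralog SUV39H2 stood at -0.55, -0.56, -0.70 and -0.68 and was called lower in TNPR and TNBU. The TNBU call was lost without TNBU replicate 2 (log2 fold change -0.58). SUV39H2 was also called lower in PRTN without TN replicate 2 (-0.59) or PRTN replicate 1 (-0.61) and in BUTN without TN replicate 2 (-0.60) or BUTN replicate 2 (-0.59).

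EHMT1 and EHMT2 form the heterodimer that dimethylates H3K9. EHMT2 was measured at 113 and 108 CPM in Ctrl, 94.9 and 102 in TN, then 86.7 and 86.9 with PRTN, 98.9 and 95.4 with BUTN, 94.9 and 80.6 with TNPR, and 89.97 and 87.1 with TNBU. Its SCFA libraries overlapped with the others. Its log2 fold changes were -0.18 ± 0.08, -0.02 ± 0.08, -0.17 ± 0.08 and -0.15 ± 0.08 with an adjusted p of 0.0592 to 0.849. EHMT1 was at 78.8 to 89.4 CPM without an SCFA and at 49.8 to 61.5 CPM with one. It was called lower in TNPR and TNBU (log2 -0.45, -0.42, -0.62 and -0.59 over the 4 groups), close to the fold threshold. The call was lost in TNPR without TNPR replicate 2 (-0.53) and in TNBU without TN replicate 2 or TNBU replicate 2 (-0.55 and -0.46), and in TNBU also with edgeR and DESeq2 (-0.58 and -0.57).

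In the H3K79 and H4K20 class the enzymes for a common mark differed. KMT5B (ENSG00000110066.14, chromosome 11, 68154863 to 68213852), an enzyme of H4K20 di- and trimethylation, was measured at 56.9 and 56.6 CPM in Ctrl, 64.7 and 58.9 in TN, then 25.3 and 25.98 with PRTN, 31.8 and 31.7 with BUTN, 25.2 and 24.7 with TNPR, and 28.5 and 24.8 with TNBU. KMT5C, its paralog, was measured at 23.3 and 22.2 CPM in Ctrl, 14.4 and 17.6 in TN, then 24.9 and 24.3 with PRTN, 22.7 and 24.97 with BUTN, 28.6 and 26.6 with TNPR, and 25.5 and 27.8 with TNBU. KMT5B fell in all 4 groups, with log2 fold changes of -1.27 ± 0.08, -0.96 ± 0.07, -1.31 ± 0.08 and -1.21 ± 0.08 (adjusted p 2.85e-08 to 3.91e-07). KMT5C rose against TN in PRTN, TNPR and TNBU (log2 0.63, 0.58, 0.79 and 0.74 over the 4 groups), but the Ctrl libraries, at 23.3 and 22.2 CPM, lay at the lower edge of the SCFA libraries (22.7 to 28.6 CPM). The KMT5C call in PRTN was lost without TN replicate 1 (log2 fold change 0.46), and it was called higher in BUTN too without TN replicate 2 (0.70) or BUTN replicate 1 (0.61). KMT5C was also called in BUTN with DESeq2, with RLE size factors and with a geometric mean without the added count (0.59 in each). Scaling by library size alone gave this call as well (0.73).

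DOT1L is the H3K79 methyltransferase. It was measured at 76.8 and 74.9 CPM in Ctrl, 69.9 and 79.8 in TN, then 109 and 108 with PRTN, 108 and 99.4 with BUTN, 104 and 86.5 with TNPR, and 98.6 and 90.3 with TNBU. The SCFA libraries were all above the others. The log2 fold changes of 0.54 ± 0.09, 0.47 ± 0.09, 0.35 ± 0.09 and 0.34 ± 0.09 had adjusted p values of 0.000295 to 0.0087 but stayed under 1.5-fold. DOT1L was called higher in PRTN without TN replicate 2 (0.61), and in PRTN and BUTN with scaling by library size alone (0.69 and 0.63). KMT5A, which places the first methyl group on H4K20, varied little, from 59.6 to 62.4 CPM without an SCFA and 50.7 to 58.04 CPM with one (log2 -0.22 to -0.08).

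Among the 6 other SET and SMYD genes, SETD6 and SMYD5 fell in all 4 groups. SETD6, which methylates the RelA subunit of NF-κB, was measured at 29.1 and 26.1 CPM in Ctrl, 26.1 and 25.4 in TN, then 13.6 and 12.6 with PRTN, 14.7 and 13.1 with BUTN, 13.1 and 12.1 with TNPR, and 13.5 and 14.5 with TNBU. SMYD5 was measured at 29.6 and 30.5 CPM in Ctrl, 31.5 and 32.1 in TN, then 16.1 and 16.1 with PRTN, 18.2 and 17.9 with BUTN, 16.5 and 14.9 with TNPR, and 16.5 and 15.8 with TNBU. Both were lower in every SCFA library than in any other. Their log2 fold changes were -0.98 ± 0.09, -0.90 ± 0.09, -1.03 ± 0.09 and -0.88 ± 0.09 for SETD6 (adjusted p 1.14e-06 to 4.92e-06) and -0.98 ± 0.07, -0.81 ± 0.07, -1.02 ± 0.07 and -0.98 ± 0.08 for SMYD5 (adjusted p 1.81e-07 to 1.29e-06), close to 2-fold. SETD6 lies over CNOT1 on the other strand, and whether the counting used strand is not given in the sources used here. SETD4, SETD5, SETD9 and SMYD4 had log2 fold changes from -0.29 to 0.21 in the SCFA groups and were not called.

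The demethylase genes had 20 tested members, of which 2, 2, 4 and 4 rose and 5, 5, 5 and 6 fell in the 4 comparisons, with a median log2 fold change of -0.16, -0.13, -0.27 and -0.27. For the 31 methyltransferase genes, all tested, the counts were 3, 1, 3 and 4 higher and 13, 13, 15 and 14 lower, with a median of -0.46, -0.44, -0.54 and -0.50. The 4 called higher in TNBU include SMYD1, which was absent without an SCFA. The share called lower was 25%, 25%, 25% and 30% of the demethylase genes and 41.9%, 41.9%, 48.4% and 45.2% of the methyltransferase genes, beside 23.2%, 21%, 24.8% and 24.7% of the genes of at least 10 CPM. That of the demethylase genes was near the background. The share called higher was 10% to 20% and 3.23% to 12.9%, beside 15.3% to 18.1%.

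The amine oxidases KDM1A (LSD1) and KDM1B (LSD2), which remove mono- and dimethylation from H3K4, differed. KDM1B (ENSG00000165097.13, chromosome 6, 18155329 to 18223854) was measured at 33.4 and 31.8 CPM in Ctrl, 36.3 and 33.5 in TN, then 105 and 103 with PRTN, 84.6 and 86.6 with BUTN, 108 and 109.6 with TNPR, and 108 and 93.1 with TNBU. KDM1A, the member that works with the CoREST complex, was measured at 217 and 215 CPM in Ctrl, 232 and 227 in TN, then 198 and 205 with PRTN, 220.5 and 216 with BUTN, 194 and 193 with TNPR, and 204 and 196 with TNBU. The lowest SCFA library of KDM1B, at 84.6 CPM, was above 36.3 CPM, the highest of the others, while for KDM1A the ranges overlapped. KDM1B rose by log2 fold changes of 1.57 ± 0.08, 1.30 ± 0.08, 1.64 ± 0.08 and 1.52 ± 0.08, or 2.46 to 3.13-fold (adjusted p 4.76e-09 to 4.86e-08). KDM1A had log2 fold changes of -0.19 ± 0.05, -0.07 ± 0.05, -0.25 ± 0.05 and -0.20 ± 0.05, with adjusted p values of 0.000996 to 0.228 and no fold over 1.5. KDM1B had the largest rise of any coding member of at least 1 CPM in each of the 4 comparisons.

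KDM2B and KDM2A carry CxxC zinc fingers that bind unmethylated CpG and remove H3K36 methylation, and KDM2B also brings a Polycomb complex to CpG islands. KDM2B was measured at 74.7 and 81.3 CPM in Ctrl, 78.8 and 82.6 in TN, then 38.00 and 41.3 with PRTN, 46.1 and 44.9 with BUTN, 40.02 and 35.8 with TNPR, and 45.01 and 39.6 with TNBU. KDM2A was measured at 172 and 189 CPM in Ctrl, 188 and 189.6 in TN, then 176 and 173 with PRTN, 171 and 167 with BUTN, 163 and 142 with TNPR, and 171 and 138 with TNBU. KDM2B did not overlap between libraries with and without an SCFA and fell, with log2 fold changes of -1.03 ± 0.08, -0.83 ± 0.08, -1.09 ± 0.08 and -0.93 ± 0.08 (adjusted p 2.36e-07 to 2.78e-06), whereas KDM2A overlapped and stood at -0.11 ± 0.09, -0.16 ± 0.09, -0.31 ± 0.09 and -0.30 ± 0.09 (adjusted p 0.0125 to 0.325), under 1.5-fold.

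KDM7A and PHF8 are related enzymes that remove H3K9 dimethylation, KDM7A also acting on H3K27. KDM7A (ENSG00000006459.10, chromosome 7, 140084746 to 140176983) was measured at 4.77 and 4.84 CPM in Ctrl, 5.66 and 5.28 in TN, then 13.6 and 10.9 with PRTN, 11.3 and 12.1 with BUTN, 12.8 and 12.8 with TNPR, and 12.8 and 11.02 with TNBU. Every SCFA library was above every other library. The rise was 1.15 ± 0.14, 1.10 ± 0.14, 1.22 ± 0.14 and 1.11 ± 0.14 on the log2 scale, 2.14 to 2.34-fold (adjusted p 9.09e-06 to 2.98e-05). PHF8 was at 52.4 to 56.1 CPM without an SCFA and at 38.3 to 45.4 CPM with one, with log2 fold changes of -0.49 to -0.31 and no call.

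All 3 members of the KDM3 class, JmjC enzymes that remove mono- and dimethylation of H3K9, fell in all 4 groups. KDM3B (ENSG00000120733.13, chromosome 5, 138352685 to 138437028) was measured at 106 and 114 CPM in Ctrl, 109 and 104 in TN, then 35.1 and 34.7 with PRTN, 44.7 and 42.1 with BUTN, 38.4 and 32.3 with TNPR, and 42.5 and 33.3 with TNBU. JMJD1C was measured at 109 and 114 CPM in Ctrl, 114 and 105 in TN, then 49.3 and 46.3 with PRTN, 50.2 and 51.01 with BUTN, 46.00 and 38.6 with TNPR, and 54.6 and 36.7 with TNBU. KDM3A, known as a target of hypoxia signalling, was at 181 to 199 CPM without an SCFA and at 95.6 to 113 CPM with one. None of the 3 overlapped between these libraries. The log2 fold changes were -1.61 ± 0.10, -1.29 ± 0.10, -1.59 ± 0.10 and -1.50 ± 0.10 for KDM3B (adjusted p 6.07e-08 to 3.9e-07) and -1.19 ± 0.13, -1.11 ± 0.13, -1.37 ± 0.14 and -1.29 ± 0.14 for JMJD1C (adjusted p 2.41e-06 to 1.61e-05), and -0.90, -0.95, -0.81 and -0.92 for KDM3A (adjusted p 1.77e-07 to 5.13e-07).

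No KDM4 gene, whose products remove trimethylation from H3K9 and H3K36, fell. KDM4C was measured at 21.3 and 20.1 CPM in Ctrl, 19.5 and 20.6 in TN, then 30.8 and 28.6 with PRTN, 27.7 and 27.6 with BUTN, 35.98 and 34.3 with TNPR, and 34.1 and 29.9 with TNBU. Its SCFA libraries were all above the others, and its log2 fold changes were 0.57 ± 0.08, 0.46 ± 0.09, 0.81 ± 0.08 and 0.67 ± 0.09 (adjusted p 3.55e-06 to 0.00053), called higher in TNPR and TNBU. Without TNBU replicate 1 the value in TNBU was 0.54 and the call was lost, and without PRTN replicate 2 KDM4C was called in PRTN (0.62). KDM4B, at 45.5 to 55.7 CPM without an SCFA and at 64.9 to 81.5 CPM with one, had log2 fold changes of 0.55, 0.44, 0.66 and 0.65 and was called higher in the same 2 groups, a call lost in both without TN replicate 1 (0.51 and 0.50) and in TNPR without TNPR replicate 1 (0.57), and made in PRTN without TN replicate 2 (0.65). KDM4A and KDM4D had log2 fold changes from -0.18 to 0.12.

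KDM4A-AS1 (ENSG00000236200.5, chromosome 1, 43685123 to 43708138), a non-coding RNA on the strand opposite KDM4A and ST3GAL3, was measured at 1.41 and 1.24 CPM in Ctrl, 1.64 and 1.47 in TN, then 3.11 and 2.88 with PRTN, 2.70 and 3.47 with BUTN, 3.000 and 3.91 with TNPR, and 2.25 and 4.13 with TNBU. The SCFA libraries were above the others, but the level is low and the replicates of TNBU differed by 0.88 on the log2 scale. Its log2 fold changes were 0.94 ± 0.30, 0.98 ± 0.30, 1.13 ± 0.30 and 0.98 ± 0.31 (adjusted p 0.00624 to 0.019). The calls were lost without TN replicate 2 in all 4 groups (adjusted p 0.112, 0.0978, 0.0552 and 0.0942), without TN replicate 1 in PRTN, BUTN and TNBU (adjusted p 0.0711, 0.0634 and 0.0603), and without PRTN replicate 1, BUTN replicate 2 or TNBU replicate 2 in their own groups (adjusted p 0.0690, 0.0970 and 0.151). Reads from the sense gene KDM4A, itself at up to 88.8 CPM, cannot be told apart from it where the counting did not use strand.

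The KDM5 genes, whose products remove H3K4 trimethylation, were not called in any comparison. KDM5A, KDM5B and KDM5C stood at 55.2 to 79.7 CPM, 133 to 184 CPM and 141 to 196 CPM over all 12 libraries, with log2 fold changes of -0.22 to -0.07, -0.25 to -0.01 and -0.37 to -0.29 against TN. KDM5C did not overlap between libraries with and without an SCFA, whereas KDM5A and KDM5B did. KDM5D was removed by the filter.

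KDM6A and KDM6B, the demethylases of H3K27, stood lower in every SCFA library than in any other. KDM6A was measured at 47.6 and 48.3 CPM in Ctrl, 51.2 and 47.5 in TN, then 36.2 and 36.5 with PRTN, 36.1 and 34.1 with BUTN, 35.4 and 31.7 with TNPR, and 36.5 and 29.3 with TNBU. KDM6B was measured at 53.8 and 53.7 CPM in Ctrl, 52.6 and 56.00 in TN, then 40.3 and 41.3 with PRTN, 42.99 and 42.2 with BUTN, 43.6 and 34.1 with TNPR, and 44.04 and 32.6 with TNBU. For neither gene did the libraries with and without an SCFA overlap. KDM6A had log2 fold changes of -0.44 ± 0.09, -0.49 ± 0.09, -0.56 ± 0.09 and -0.59 ± 0.10 and was called lower in TNBU, at a fold of 1.51 that was lost without TN replicate 1 (log2 fold change -0.55), without TNBU replicate 2 (-0.43), and with edgeR (-0.58) and DESeq2 (-0.57). In TNPR it was called without TN replicate 2 (-0.64), TNPR replicate 1 (-0.68) or TNBU replicate 1 (-0.61). KDM6B had -0.41 ± 0.12, -0.35 ± 0.12, -0.49 ± 0.13 and -0.52 ± 0.13 (adjusted p 0.0037 to 0.0302) and was not called, though it passed the fold threshold without TNPR replicate 1 in TNPR (log2 fold change -0.72) and without TNBU replicate 1 in TNBU (-0.77).

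KDM8, also known as JMJD5, a JmjC hydroxylase, was low and fell in all 4 groups. It was measured at 3.32 and 3.19 CPM in Ctrl, 4.07 and 3.51 in TN, then 1.64 and 1.52 with PRTN, 2.46 and 2.11 with BUTN, 1.17 and 1.80 with TNPR, and 1.98 and 1.76 with TNBU. No SCFA library reached the lowest of the others, at 3.19 CPM. The log2 fold changes were -1.25 ± 0.21, -0.73 ± 0.19, -1.38 ± 0.21 and -1.01 ± 0.20 (adjusted p 0.00011 to 0.00537), and the call in BUTN was lost without BUTN replicate 2 (adjusted p 0.0545) and with DESeq2 (adjusted p 0.0591). JMJD6, a lysyl hydroxylase, was at 50.6 to 59.4 CPM without an SCFA and at 63.8 to 68.8 CPM with one, and its log2 fold changes of 0.12 to 0.19 were not called. Of the remaining members, KMT2E-AS1 was at 0.700 to 1.61 CPM and was not called, but it was called higher in TNPR without TNPR replicate 1 (adjusted p 0.0102) or with scaling by library size alone (adjusted p 0.0411), and KDM4E, KDM4F, KDM5C-IT1 and SMYD3-IT1, each with at most 2 counts in any library, did not pass the filter.

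Where related enzymes went different ways, the ratio between them moved. The pairs described here were chosen with these values known, so they are a description without a test, and levels of different genes are compared per kb of exon, counted over all annotated transcripts of a gene. The ratio of KDM1B to KDM1A per kb was 0.481 to 0.509 in the 4 libraries without an SCFA and 1.25 to 1.85 in the 8 with one, so KDM1B passed from the lower to the higher of the pair on this scale. In CPM, not divided by length, the ratio was 0.147 to 0.156 and 0.384 to 0.568, with KDM1A higher in all 12 libraries. The crossing therefore rests on the exon lengths used, 18325 bases for KDM1A and 5619 for KDM1B. SMYD3 over SMYD2 moved from 0.200 to 0.247 up to 0.750 to 1.01. KMT5B over KMT5C moved from 1.22 to 2.24 down to 0.441 to 0.702, and NSD1 over NSD3 from 0.109 to 0.140 down to 0.0218 to 0.0325. KMT2D over KMT2C went from 4.38 to 5.35 to 1.92 to 2.30. KDM6B over KDM6A overlapped, at 3.86 to 4.43 and 4.03 to 4.64.

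**Figure D4:**
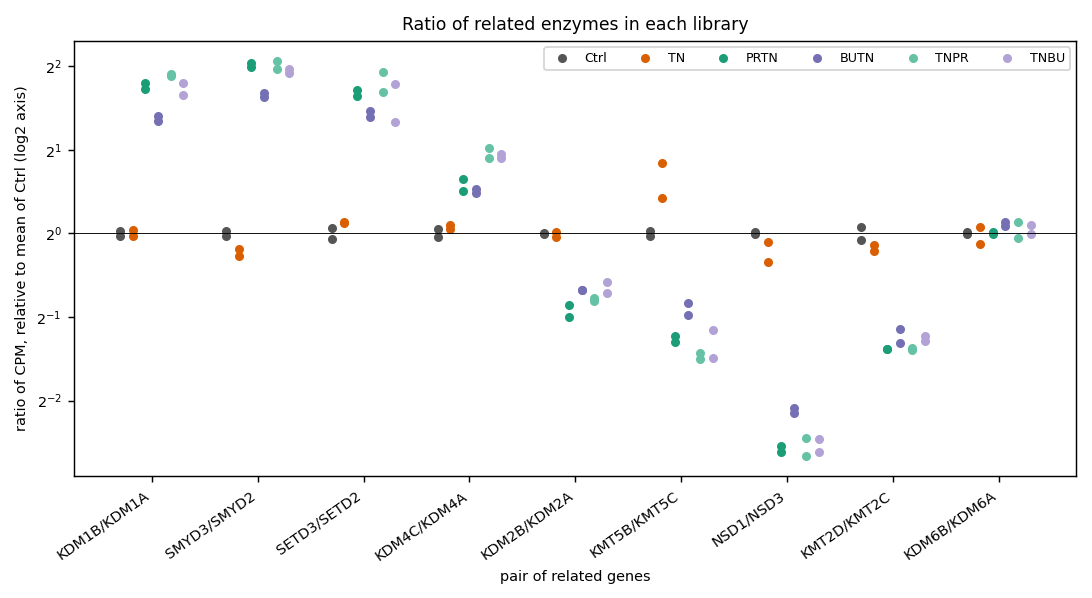
Ratio of CPM of 9 pairs of related genes in each library, divided by the mean ratio of the Ctrl libraries so that gene length cancels, on a log2 axis. For all pairs but KDM6B/KDM6A the 8 SCFA points lie on one side of the 4 points of Ctrl and TN.

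Per kb of exon, the members with the highest mean level in TN were KDM2A (18.2 CPM per kb), SMYD2 (16.2), KDM4A (15.7) and KDM5C (15.1), and whether these neighbours differ was not tested. KDM1B was the 28th of the 53 in TN, at 6.21 CPM per kb, and the first in PRTN, TNPR and TNBU, at 18.5, 19.4 and 17.9, and the third in BUTN, at 15.2. These ranks rest on the exon lengths used. In CPM, not divided by length, KDM1B had a mean of 104 in PRTN, below NSD2 (222), KDM1A (202) and KDM2A (175), among others. KDM3B passed from rank 8, at 13.5, to ranks between 22 and 28, and SETD7 from rank 22 to ranks between 38 and 41. NSD1 was 49th in TN, at 0.804, and 52nd in each SCFA group, at 0.157 to 0.198.

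No difference between the SCFAs, or between the times of administration, was called for any member. In PRTN vs BUTN, TNPR vs TNBU, TNPR vs PRTN and TNBU vs BUTN 0 of the 53 members passed with limma-voom, edgeR or DESeq2, where limma-voom called 0.168%, 0.00822%, 0.16% and 0.267% of all genes tested in either direction. At an unadjusted p under 0.05 there were 9, 1, 1 and 9 members. The lowest adjusted p of PRTN vs BUTN was 0.0982 for KDM1B, higher in PRTN by a log2 fold change of 0.28 (95% interval 0.12 to 0.43), followed by KMT5B, lower by -0.31 (-0.48 to -0.14), and SETD3, higher by 0.23 (0.09 to 0.36). After TNF-α the same differences between propionate and butyrate were 0.12 (-0.03 to 0.28), -0.09 (-0.27 to 0.09) and 0.19 (0.05 to 0.33). Over the 51 members of at least 1 CPM the 95% interval lay within 1.5-fold either way for 47 in PRTN vs BUTN and 45 in TNPR vs TNBU, the widest bounds being -0.99 for KDM8 and 0.69 for KDM4A-AS1.

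For the time of administration the interval lay within 1.5-fold for 49 of 51 members with propionate and for 46 with butyrate. KMT5B was lower in TNBU than in BUTN by a log2 fold change of -0.26, with an adjusted p of 0.174. Members called in TNPR and TNBU but not before TNF-α, such as KDM4B, KDM4C, EHMT1 and SUV39H2, were therefore not shown to differ between the times. The difference of the SCFA differences between the times was called for 0 members and 0 of all genes tested, with 1 member at an unadjusted p under 0.05 and 0 called by edgeR and DESeq2.

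The replicates were not equally close, and in some groups the gap varied with gene length. Over the 53 tested members the median absolute log2 difference between replicates was 0.0715 and 0.0805 in Ctrl and TN, 0.0398 and 0.0518 in PRTN and BUTN, and 0.147 and 0.183 in TNPR and TNBU. The log2 ratio of replicate 1 to replicate 2 reached 0.72 for KMT2C in TNBU and -0.71 for KMT2D in Ctrl, both long genes. Across the 51 members of at least 1 CPM the Spearman correlation of the log2 ratio of replicate 1 to replicate 2 with exonic length was -0.57 in Ctrl, 0.35 in TNPR and 0.54 in TNBU, a description of genes that share a library. The mitochondrial share of the counts was 5.86% in TNBU replicate 1 and 7.19% to 9.46% in the other libraries. Without TNBU replicate 1 the counts in TNBU were 6 members higher and 23 lower, and without TNBU replicate 2 they were 8 and 16. The part of the library differences in the results was otherwise not tested.

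**Figure D5:**
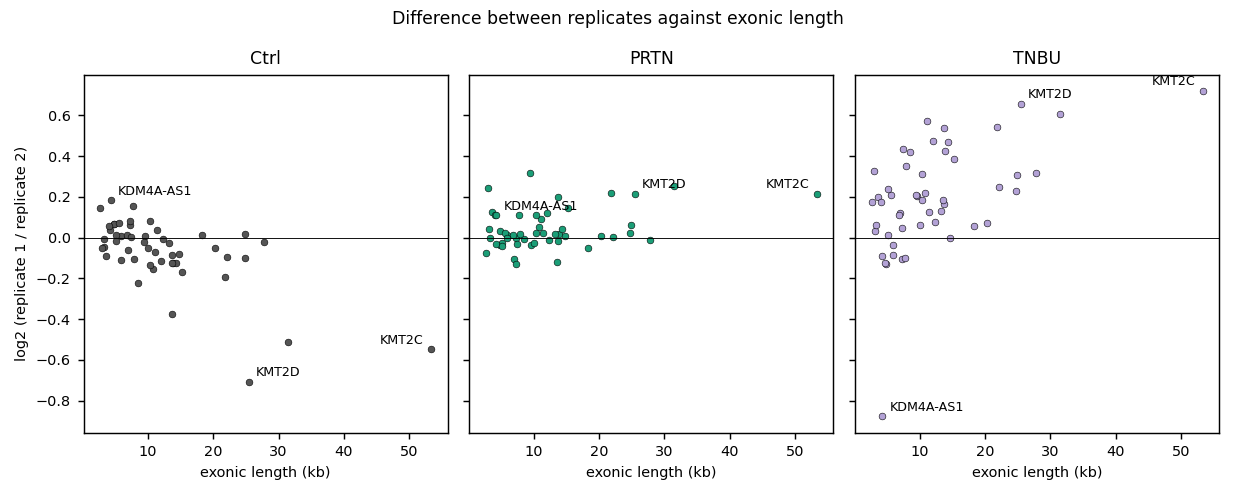
Log2 ratio of replicate 1 to replicate 2 (vertical axis) against exonic length in kb (horizontal axis) for the 51 members of at least 1 CPM, in Ctrl, PRTN and TNBU. KMT2D sits at -0.71 in Ctrl and KMT2C at 0.72 in TNBU, at opposite ends of the axis, and KDM4A-AS1 is the point at -0.88 in TNBU.

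Partner genes of these enzymes were called in both directions, in shares mostly near those of the genes of at least 10 CPM (15.3% to 18.1% higher and 21% to 24.8% lower). Of 14 subunits of COMPASS and MLL complexes, 1, 0, 2 and 1 rose and 3, 2, 3 and 3 fell in the same order of groups, PRTN first, or 0% to 14.3% higher and 14.3% to 21.4% lower, at or under that background. The scaffold HCFC1 (-1.29, -1.28, -1.50 and -1.37) and the coactivator subunit NCOA6 (-1.16, -0.998, -1.26 and -1.26) had the lowest log2 fold changes, and DPY30, a core subunit, had the highest (0.63, 0.58, 0.65 and 0.62, not called in BUTN). Of 16 partners in CoREST and H3K9 methylation 3, 3, 2 and 3 rose and 4, 4, 5 and 4 fell (12.5% to 18.8% and 25% to 31.2%). Here the H3K9 methyltransferase SETDB1 (-0.88, -0.69, -0.77 and -0.69) and ZMYM2 (-0.89, -0.81, -1.09 and -1.12) fell, SETDB2 (0.77, 0.98, 0.92 and 0.94) rose, and RCOR2 rose in PRTN, BUTN and TNBU (0.75, 1.19, 0.41 and 0.79) after being called lower in TN vs Ctrl (-0.80).

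Of 13 partners and readers of H3K36 and H3K79 methylation, 1 rose and 4, 3, 4 and 4 fell (7.69% and 23.1% to 30.8%). ZMYND11, a reader of H3K36 trimethylation on H3.3, fell, with log2 fold changes of -1.75, -1.55, -1.93 and -1.73, as did the Polycomb accessory factor PHF19 (-1.55, -1.53, -1.43 and -1.49), whereas its relative PHF1 rose by 1.02, 0.60, 0.95 and 0.67. Of 15 further lysine methyltransferase and JmjC genes outside the naming rule, 2, 3, 3 and 3 rose and 4, 4, 5 and 4 fell (13.3% to 20% and 26.7% to 33.3%). PHF2, a JmjC relative of KDM7A and PHF8, fell (-1.99, -1.68, -2.08 and -1.91), as did SETMAR (-1.46, -1.06, -1.47 and -1.35), whereas HR, a JmjC corepressor, rose from 1.13 CPM in TN to between 6.99 and 13.2 CPM (by up to 3.54 on the log2 scale) and MECOM, a PR-domain gene, rose too (1.25, 1.47, 1.16 and 1.57).

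Of 14 genes that supply or spend S-adenosylmethionine and 2-oxoglutarate, 3, 2, 3 and 3 rose and 5, 4, 5 and 4 fell (14.3% to 21.4% and 28.6% to 35.7%). NNMT, which spends S-adenosylmethionine on nicotinamide, went from 118 CPM in TN to between 18.9 and 33.0 CPM (-2.64, -2.11, -2.14 and -1.85), and the mitochondrial S-adenosylmethionine carrier SLC25A26 fell too (-0.88, -0.86, -0.76 and -0.76).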

How the data were processed

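HK2 RNA from 12 libraries was analysed, 2 biological replicates in each of 6 groups taken from the library labels. The authors deposited expected counts, estimated for each gene with RSEM on GENCODE release 26 after aligning stranded mRNA reads to GRCh38 with STAR (2.6.1a per the submitters' processing notes), with no scaling. The RSEM version and strand setting are not given in the sources used here. Of the values, 19.3% are not whole, since RSEM divides reads between similar genes.

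Counts entered limma 3.58.1 (R 4.3.3) as deposited. Genes with a geometric mean (count plus 1, then minus 1) of at least 1 were kept, which removed 33936. TMM factors (edgeR 4.0.16), voom weights, a mean for each of 6 groups, moderated statistics and Benjamini-Hochberg adjustment over 24342 genes gave calls at a fold over 1.5 and an adjusted p under 0.05. SEs are moderated and SDs are of 2 replicates. All 12 libraries shared 1 estimate of the spread. Floors of 3 counts cover counting error only.

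The members, enzyme classes, partner lists and rules for named genes were chosen with earlier results of these data known. Named with values in every library were the called member of smallest adjusted p in each class in PRTN and in TNBU vs TN, members called higher in all 4 comparisons, the 5 lowest fold changes among those called lower in all 4, and 10 listed members whatever their values. KMT2C, KMT2D and KMT5C were added after their values were seen. Of the partner lists, the 2 largest rises and 2 largest falls called in PRTN vs TN were named, except some that are not reported here.

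Alternatives were edgeR quasi-likelihood and DESeq2 1.42.0 on rounded counts, 2 scalings, 2 filters, fits of only the groups compared, fold thresholds of 2 and none, a replicate block and leaving out each library. Deviations of same-numbered replicates correlated from -0.0791 to 0.240 over 15 pairs of groups, 1 of them over 0.1, so the numbers were not used as pairs. The scripts were tested on simulated data. Positions are from GENCODE release 44 on GRCh38, which matched 58 of 58 members, and promoter windows are from RefSeq, which held 52 of them.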

Additional observations from a re-analysis of the deposited data

How the results depend on the processing

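Of 103 calls of members against TN, 77 held in all 20 refits, and no call changed direction. The median of all genes did change sign with both alternative filters. Leaving out each library in turn gave 0 to 1 members lower in TN vs Ctrl, the 1 being KMT5C without TN replicate 2. It gave 4 to 7 higher and 17 to 19 lower for PRTN, 3 to 6 and 16 to 19 for BUTN, 7 to 9 and 18 to 23 for TNPR, and for TNBU 5 to 9 and 16 to 23, where the lowest count of 5 came without TN replicate 1. Scaling by library size alone gave 10 higher in PRTN and 10 in BUTN. With a fold over 2 there were 3 higher and 8 lower in PRTN, 4 and 10 with TNPR, and with TNBU 4 and 6. In BUTN 4 were then lower, and KDM1B, KDM7A and SMYD3 were higher. The 4 higher in TNBU include SMYD1, which had 0 counts in every library without an SCFA. With no fold threshold 1 was lower in TN vs Ctrl, 11 higher and 28 lower in PRTN, 10 higher in BUTN and 31 lower in TNPR. The other counts of this setting are not reported here. Members called in all 4 groups numbered 3 to 8 higher and 13 to 18 lower over the refits, KDM4A-AS1 being lost most often. The replicate block gave 6 higher and 18 lower for PRTN, 4 and 18 for BUTN, 8 and 20 for TNPR and 9 and 20 for TNBU, and changed no count of calls. Without pairing, 2 libraries a group limit the precision, and for members under 5 CPM such as KDM8 and KDM4A-AS1 the depth does too.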

Other observations

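Across 50 coding members the Spearman correlation of the log2 fold change against TN with the level in TN was -0.24 to -0.28 over the 4 SCFA groups, with exonic length -0.09 to -0.16 and with the length of the gene on the chromosome 0.05 to 0.09. These are descriptions over genes of the same libraries. The 3 coding members called higher in all 4 groups had TN levels of 5.47 to 34.9 CPM and spans of 68.5 to 758 kb, the longest being SMYD3. The 17 called lower in all 4 spanned 8.36 to 355 kb at 3.79 to 190 CPM, and the 21 coding members called in none spanned 13.97 to 174 kb at 3.67 to 304 CPM, so the ranges overlapped. Members that share sequence on the opposite strand with a coding gene, such as KMT2B with IGFLR1, DOT1L with AP3D1, SUV39H2 with DCLRE1C and KDM2B with RNF34, carry the same limit of unknown strand setting as SETD6 with CNOT1.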
